A study of Arabidopsis thaliana with 16 samples.

Results

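The difference in light response between a sap3 mutant of Arabidopsis thaliana and the wild type Col-0 (WT) was taken from 9 of the 16 arrays in the study. It is the difference between high light (HL) and low light (LL) in sap3 minus the same difference in WT. Values are log2 signals, so a value of 1 means that a transcript responded 2-fold more, or 2-fold less negatively, in sap3. The members were chosen by rule among the 12 arrays of single replicates. An array was kept when its signal of HSP90.1, a heat-inducible cytosolic chaperone gene, lay on the side of 6 that its light label calls for. This kept WT in LL replicates 1, 2 and 3, WT in HL replicates 1 and 3, sap3 in LL replicates 1 and 3, and sap3 in HL replicates 1 and 2. Arrays are named below by genotype, light and replicate, for example WT_HL_1.

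HSP90.1 is given as a description only, since it chose the arrays. Its signals were 2.80, 3.38 and 3.55 in WT_LL and 9.80 and 9.77 in WT_HL. They were 3.86 and 3.19 in sap3_LL and 10.21 and 10.07 in sap3_HL. The kept arrays nearest to the threshold were sap3_LL_1 at 3.86 and WT_HL_3 at 9.77. The left-out arrays were WT_HL_2 at 3.62, sap3_LL_2 at 11.09 and sap3_HL_3 at 3.17. No array lay between 3.86 and 9.77. Because arrays were kept by their light level, the light response within each genotype is described here with no test, and only the difference between the genotypes was tested.

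Each array held rosettes of 15 plants. All plants spent 3 weeks at 80 to 100 µmol photons m-2 s-1 and then 10 days at 8 µmol, the low light at which the LL groups were harvested. The HL groups were moved to 800 µmol before harvest, for 60 min by the titles and the design text and for 10 min by the treatment protocol, so the duration is not settled. WT is unmodified Col-0, and sap3 is labelled a knockout of the stress-associated protein gene SAP3, and the allele is not named in the labels. The 4 remaining arrays were pools of 45 plants labelled WT or cml49 in LL or HL, and are used only as side values. The CML49 gene had signals of 3.97 and 4.23 in the cml49 pools and only 2.77 and 3.30 in the WT pools, which goes against these labels. The labels number the replicates as biological, and the pool titles call the 3 they combine independent, but whether these were grown and treated apart is not stated, so p-values measure the spread between these samples. The number of arrays limits the precision.

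SAP proteins carry A20 and AN1 zinc fingers, and several plant members bind ubiquitin or act in stress tolerance. A step from low to strong light loads the photosynthetic electron chain faster than carbon fixation can drain it, and signals from the chloroplast then alter transcription in the nucleus within minutes to hours. Typical responses in rosette leaves are an increase of cytosolic chaperones, of flavonoid and xanthophyll enzymes and of antioxidant genes, and a decrease of genes that mark sugar starvation. The comparison asks which of these responses differ when SAP3 is disrupted.

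The arrays were alike in scale, with medians of 4.37 to 4.42. The highest correlation between any 2 of the 9 arrays was 0.9907, and none were identical. The median over the leaf markers RBCS1A, RBCS2B, RCA, LHCB1.4, LHCB2.1 and LHCA1 was high in every array, at 8.71 (WT_LL_2) to 10.17 (WT_HL_3). Of these 6 markers, 5 exceeded the array median on average. The 9 root markers had medians of 1.95 to 2.66 and the 11 flower markers of 1.97 to 2.49, and none of them exceeded the array median on average. In whole rosettes, fewer cells of a type and less RNA per cell cannot be told apart.

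SAP3 itself (AT2G27580, chromosome 2, 11776411 to 11777529, positions from the authors' annotation, whose build is not stated) responded to light in both genotypes. Its signals were 4.85, 4.84 and 5.14 in WT_LL and 6.14 and 6.48 in WT_HL. In sap3 they were 4.21 and 4.05 in LL and 5.06 and 5.28 in HL. Every sap3 array lay below every WT array of the same light, by 0.81 in LL and 1.14 in HL on average, and the HL arrays lay above the LL arrays in both genotypes. The response was 1.37 in WT and 1.04 in sap3, a difference of -0.33 (95% interval -0.89 to 0.23) that includes 0. Since the labels do not say what the mutation is or where it lies relative to the probes, residual signal does not measure loss of transcript. Among the arrays left out, WT_HL_2 had a SAP3 signal of 3.94, sap3_LL_2 one of 6.98 and sap3_HL_3 one of 3.74. The first of these lay below all kept WT arrays and the second above all kept sap3 arrays, so labels and SAP3 signal disagree there too.

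No locus passed the test for a different light response. Of 28403 probe sets, 0 (0%) had an adjusted p under 0.05 in limma, and the smallest adjusted p was 0.3004, for AT3G60950. At an unadjusted p under 0.05 there were 1192 probe sets (4.2%), of which 548 (1.93%) responded more positively in sap3 and 644 (2.27%) less. A difference of at least 1 was seen for 200 probe sets (0.704%). Probe sets whose LL and HL arrays did not overlap in either genotype and that went opposite ways numbered 285 (1%) for higher in HL in WT and lower in sap3, and 244 (0.859%) for the reverse. The median 95% interval reached 0.60 to either side of its estimate, and 20616 probe sets (72.6%) had an interval wholly within -1 and 1. A difference of response larger than 2-fold was thus outside the interval for those probe sets, while one under 0.60 could not be told from 0 at the median precision.

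In the 9 kept arrays the responses themselves ran closely side by side. Keeping arrays by their HSP90.1 level in both genotypes favours such agreement. In the 12 arrays as labelled, the median difference was -1.17 over 30 heat shock proteins and factors and 0.47 over 18 sugar starvation and dark-induced genes. In WT, 768 probe sets (2.7%) were at least 1 higher in HL and 515 (1.81%) at least 1 lower. In sap3 the corresponding numbers were 773 (2.72%) and 560 (1.97%). Of the 1283 probe sets with a response of at least 1 in WT and the 1333 in sap3, 959 met it in both genotypes in the same direction, which is 74.7% of the WT set and 71.9% of the sap3 set, and 1 met it in opposite directions. Over all 28403 probe sets the responses had a Pearson correlation of 0.799, a description across probe sets of responses that share no array. The 734 probe sets whose mean response over both genotypes was at least 1 upward had a median response of 1.49 in WT and 1.49 in sap3. The 480 with a mean response of at least 1 downward had medians of -1.34 (WT) and -1.39 (sap3). Intervals within -1 and 1 were found for 433 (59.0%) of the first set and 299 (62.3%) of the second.

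**Figure D1:**
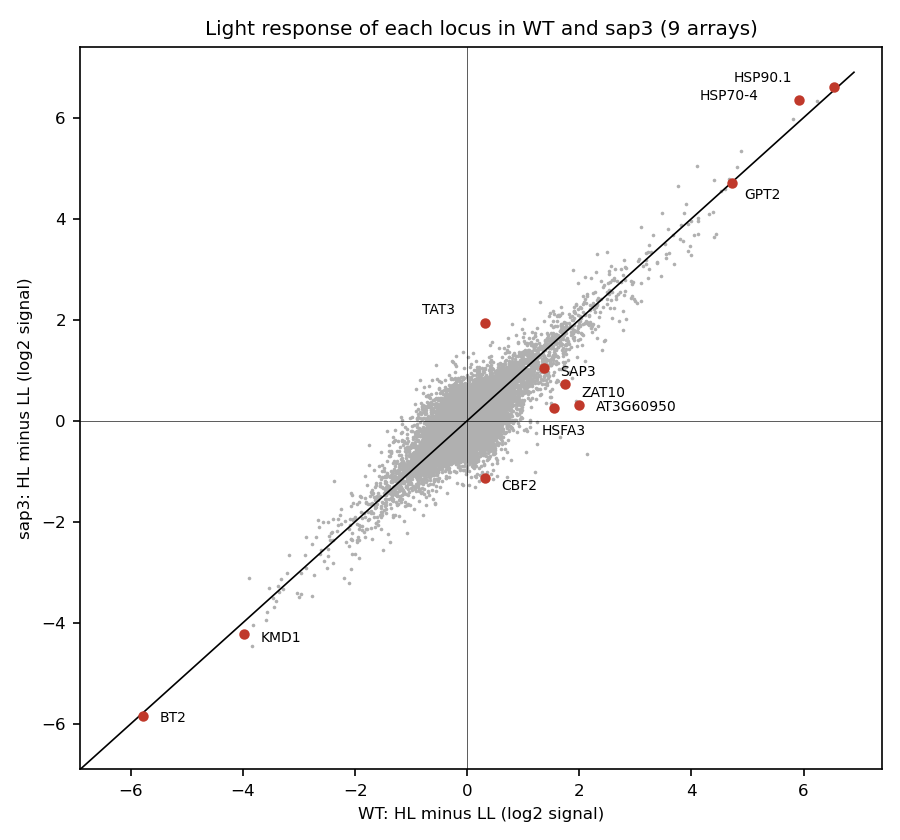
Light response (HL minus LL, log2 signal) of 26994 loci, 1 point each, in WT on the x axis and sap3 on the y axis, with the line of equal response and named loci in red. HSP90.1 and BT2 lie near the line at its ends, and AT3G60950 lies below it at 2.00 in WT and 0.31 in sap3.

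The 10 loci with the largest increases were mainly chaperones and their regulators. After HSP90.1, with responses of 6.54 in WT and 6.62 in sap3, the largest was HSP17.8, a class I small heat shock protein that holds unfolding proteins. Its signals were 2.57, 2.22 and 3.09 in WT_LL, 8.59 and 9.15 in WT_HL, 3.04 and 2.23 in sap3_LL, and 9.45 and 8.50 in sap3_HL. The HL and LL arrays did not overlap in either genotype, while the 2 genotypes overlapped within each light level. The difference of response was 0.10 (95% interval -1.08 to 1.27). HSP70-4, a cytosolic HSP70 chaperone, responded by 5.92 in WT and 6.36 in sap3. HSFA2, the heat stress factor that sustains chaperone transcription, responded by 4.89 and 5.35. ROF2, an FKBP-type isomerase that binds HSP90, responded by 5.81 and 5.97. HSP101, the disaggregase of the cytosol, gave 4.60 in WT and 4.58 in sap3.

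The others were not chaperones. AT5G12110, a beta subunit of translation elongation factor 1, responded by 4.81 in WT and 5.02 in sap3. GPT2, the glucose 6-phosphate translocator of the chloroplast envelope that is induced by sugar and strong light, had signals of 2.88, 2.82 and 3.16 in WT_LL and 7.57 and 7.79 in WT_HL. In sap3 it had 3.24 and 2.80 in LL and 7.72 and 7.74 in HL. The genotypes overlapped in both light levels. The difference of response was -0.02 (95% interval -0.60 to 0.57), which leaves out a 2-fold difference either way. ASG4, a MYB-like factor of the REVEILLE family, responded by 4.67 and 4.78, and CP1, a calcium-binding protein, by 4.41 and 4.77.

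The 10 largest decreases followed the same course. BT2, a BTB and TAZ domain scaffold protein that is repressed by sugar, had signals of 9.63, 10.08 and 9.52 in WT_LL and 4.08 and 3.83 in WT_HL. In sap3 it had 10.22 and 9.76 in LL and 3.68 and 4.61 in HL. Its responses were -5.79 and -5.85, a difference of -0.06 (95% interval -0.98 to 0.87). KMD1, an F-box protein that targets type-B response regulators of cytokinin signalling, responded by -3.99 in WT and -4.22 in sap3. BBX14, a B-box factor, gave -3.82 and -4.05. TPS8, a class II trehalose phosphate synthase, gave -3.46 and -3.51. The widest gaps among the 10 were those of AT3G15450, a sugar-repressed protein with YGL and LRDR motifs, and of AT3G15630, annotated as hypothetical. AT3G15450 responded by -3.84 in WT and -4.47 in sap3, a difference of -0.62 (95% interval -1.50 to 0.25). AT3G15630 responded by -3.89 and -3.11, a difference of 0.78 (95% interval -0.16 to 1.72). AT3G15450 moved between -1.13 (without sap3_HL_2) and -0.12 (without sap3_HL_1), and was 0.78 in the 12 arrays as labelled. AT3G15630 moved between 0.30 and 1.26 without the same arrays, and was 1.84 in the 12. With HSP90.1 left aside, the 95% intervals of all 19 other loci with the largest increases or decreases included 0.

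**Figure D2:**
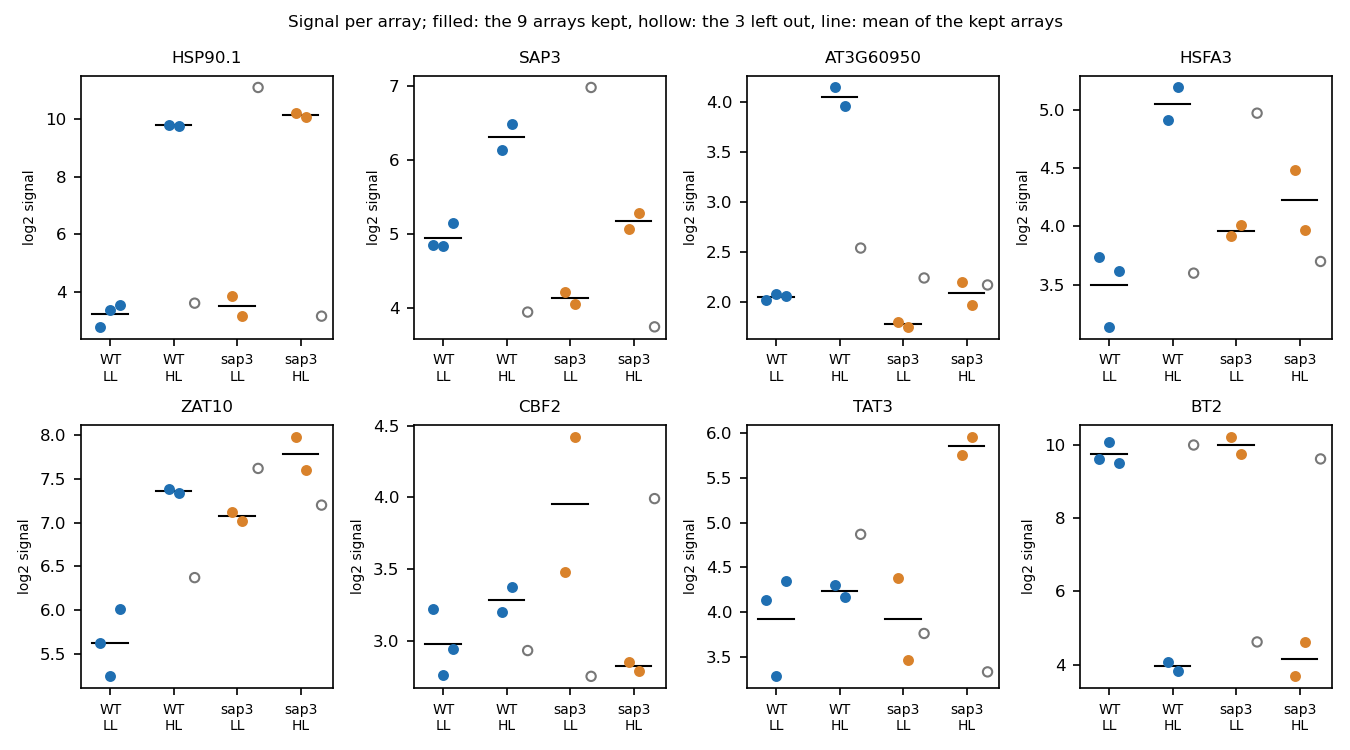
Log2 signal per array (y axis) for 8 loci in the groups WT LL, WT HL, sap3 LL and sap3 HL (x axis), with WT in blue, sap3 in orange, the 3 left-out arrays as hollow points and the mean of the kept arrays as a line. For AT3G60950 the WT HL arrays at 4.15 and 3.96 stand above all other arrays drawn, and for CBF2 the sap3 LL arrays at 3.48 and 4.42 stand above all other kept arrays.

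The smallest p-value in the comparison belonged to AT3G60950 (chromosome 3, 22524475 to 22530306), annotated as a C2 calcium and lipid-binding, endonuclease or exonuclease domain protein. Its signals were 2.02, 2.08 and 2.06 in WT_LL and 4.15 and 3.96 in WT_HL. In sap3 they were 1.80 and 1.75 in LL and 2.20 and 1.97 in HL. The signal of the HL arrays of WT was about 2 above that of the LL arrays, whereas the sap3 arrays in HL lay near the level of WT in LL. The response was 2.00 in WT and 0.31 in sap3, a difference of -1.69 (95% interval -2.16 to -1.23; limma adjusted p = 0.3004). The difference stayed between -1.81 and -1.58 when each of the 9 arrays was left out, and was -1.31 in the 12 arrays as labelled. The pools gave a response of 0.67 for those labelled WT and 1.48 for those labelled cml49.

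The 12 loci with the smallest p among those responding less positively in sap3 had differences of -1.69 to -0.96, and none but AT3G60950 had a limma adjusted p below 0.9997. AT5G11230, annotated as a nucleotide-sugar transporter, had 3.39, 3.35 and 3.68 in WT_LL, 4.17 and 3.70 in WT_HL, 4.01 and 3.81 in sap3_LL and 2.90 and 2.60 in sap3_HL. Both sap3_HL arrays were thus the lowest of the 9. Its difference was -1.62 (95% interval -2.25 to -1.00). PAP8, a purple acid phosphatase, had 4.32, 4.54 and 4.20 in WT_LL, 4.55 and 4.48 in WT_HL, 4.87 and 5.14 in sap3_LL and 3.85 and 3.94 in sap3_HL. For this gene the kept sap3 arrays were the highest of the 9 in LL and the lowest in HL. Both LL pools lay between the kept sap3_LL arrays, whichever label they carried, with 5.06 in the one labelled WT. The left-out sap3_LL_2 had 3.8 and sap3_HL_3 had 4.94. The PAP8 difference was -1.27 (95% interval -1.79 to -0.76), and -0.41 in the 12 arrays as labelled. AT1G52200, a PLAC8 family protein, was higher in sap3 than in WT only in the kept LL arrays, at 4.72 and 4.96 against 3.66 to 3.95. The pools in LL labelled WT and cml49 had 4.65 and 4.61. Its difference was -1.07, and -0.29 in the 12 arrays. PRK3, a pollen receptor-like kinase, DEL3, an E2F-like factor, and AT5G38180, a lipid-transfer-like protein, had differences of -0.96, -1.14 and -1.24. In the 12 arrays PRK3, DEL3 and AT5G38180 gave -0.48, -0.66 and -1.42.

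The 12 loci at the other end had differences of 0.93 to 1.66, all with a limma adjusted p of 0.9997. MDHAR (AT3G09940), a monodehydroascorbate reductase that regenerates ascorbate, had 2.85, 2.73 and 2.83 in WT_LL and 2.45 and 2.50 in WT_HL. In sap3 it had 2.38 and 2.73 in LL and 3.38 and 3.53 in HL. The sap3_HL arrays were the highest of the 9 and the response was -0.33 in WT and 0.90 in sap3. The difference was 1.23 (95% interval 0.73 to 1.73). AT2G43570, a class IV chitinase-like gene, had 3.54 to 3.84 in WT_LL, 3.09 and 3.30 in WT_HL, 3.85 and 3.21 in sap3_LL and 4.48 and 4.15 in sap3_HL. Its difference was 1.29 (95% interval 0.60 to 1.98), again with the highest signals of the 9 in sap3_HL. The left-out WT_HL_2 and the HL pool labelled WT were higher, at 4.76 and 4.92, and sap3_HL_3 had 3.56. In the 12 arrays as labelled the difference was 0.70. The peroxidase gene AT2G38390 gave 0.93 and the AINTEGUMENTA-like factor AIL7 1.11, but 0.43 and 0.40 in the 12 arrays. The auxin response factor gene ARF22 gave 1.02, the ABC transporter ABCB22 1.42 and the RNA polymerase subunit NRPE3B 1.34. In the 12 arrays ARF22, ABCB22 and NRPE3B gave 1.09, 0.87 and 1.14.

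These 24 loci shared a low signal. All 12 with a more positive and 10 of 12 with a less positive response in sap3 had a mean signal below the median over probe sets of 4.4, with means of 1.98 to 5.4. In 11 and 10 of them the signs of the response in WT and sap3 were opposite, which the choice by small p also favours. The signs were the same in 18881 of all 28403 probe sets and in 8031 of the 14201 below that median. Among all probe sets below that median, 5.85% had an unadjusted p under 0.05, against 2.54% above it, and intervals within -1 and 1 were found for 61.0% and 84.2%. All 24 kept their sign when each array was left out and in the 12 arrays as labelled, which the choice by small p favours.

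**Figure D3:**
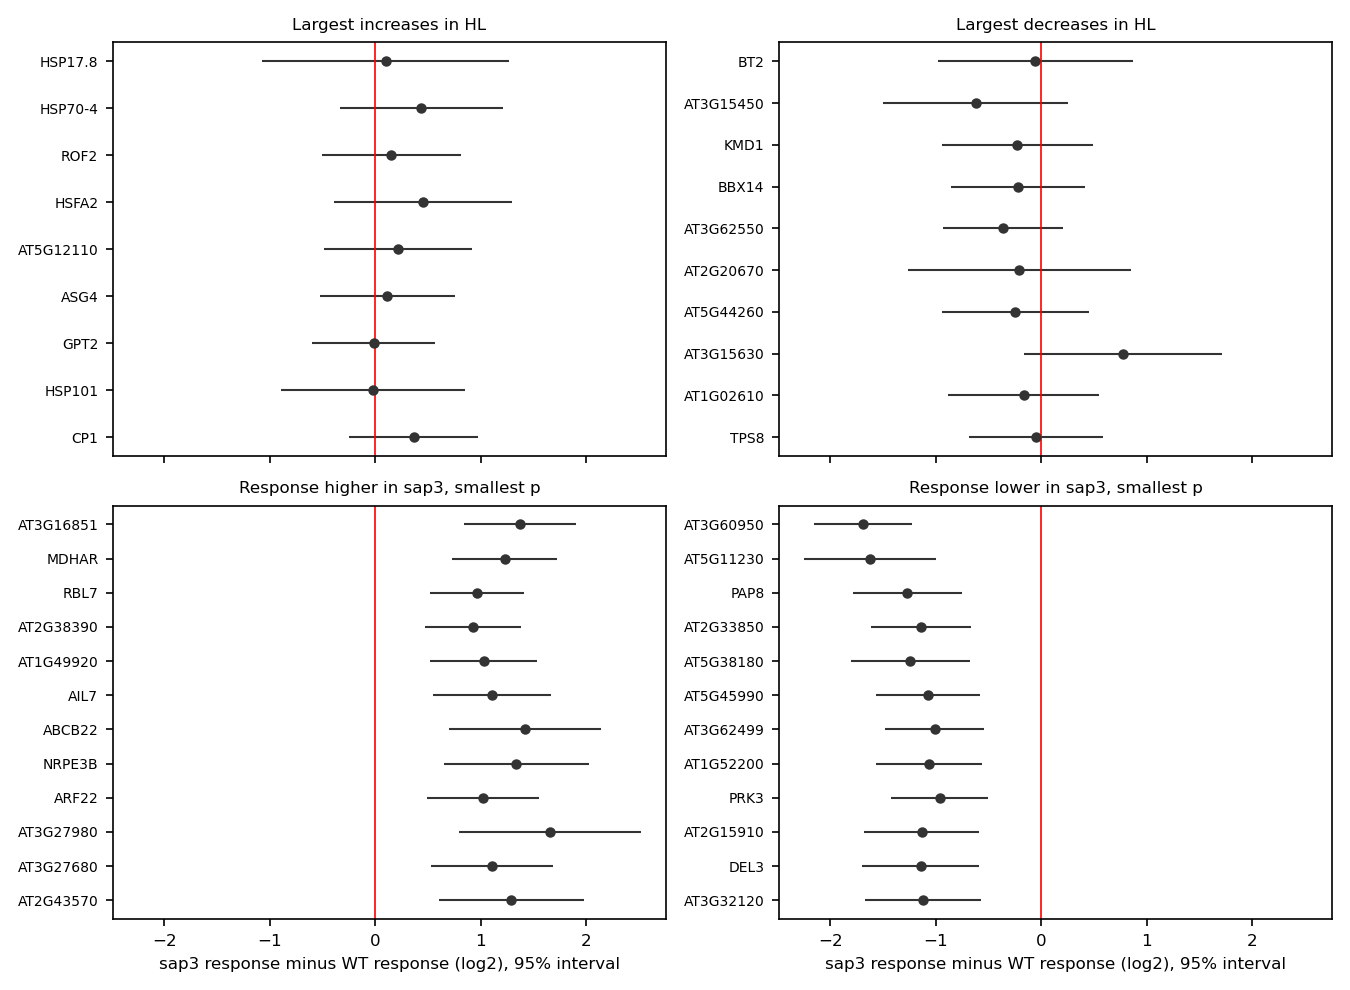
Difference of light response (sap3 minus WT, log2, x axis) with its 95% interval for the loci with the largest increases (9, without HSP90.1) and decreases (10) in HL in the upper panels and for the 12 loci with the smallest p in each direction in the lower panels. All intervals in the upper panels include 0, and AT3G60950 has the lowest estimate, at -1.69.

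The largest differences in size were not those with the smallest p. AT3G01345, annotated as hypothetical and named after its values were seen, had the most negative estimate. Its signals were 7.00, 3.90 and 7.01 in WT_LL, 8.04 and 8.19 in WT_HL, 3.26 and 3.98 in sap3_LL and 3.06 and 2.84 in sap3_HL. Apart from WT_LL_2, which lay at 3.90 with the sap3 arrays, the kept arrays of the genotypes were far apart in both light levels. Among the arrays left out, WT_HL_2 had 2.85, also with the sap3 arrays, and sap3_LL_2 and sap3_HL_3 had 4.14 and 3.96. The pools labelled WT had 3.17 in LL and 3.87 in HL, and those labelled cml49 had 3.60 and 7.97, so signals at this locus did not follow the genotype labels throughout. The estimate of -2.82 (95% interval -5.33 to -0.30) became -1.78 without WT_LL_2 and -0.90 in the 12 arrays as labelled. PGAZAT, the polygalacturonase ADPG2 of cell separation, also named afterwards, had 3.36, 2.78 and 3.21 in WT_LL and 4.30 and 4.34 in WT_HL. In sap3 it had 4.47 and 2.68 in LL and 2.54 and 2.58 in HL. The sap3_LL pair was far apart, and the difference of -2.22 moved between -3.11 (without sap3_LL_3) and -1.32 (without sap3_LL_1). The most positive estimate was that of NAC101, a NAC factor of xylem vessels chosen in the same way, at 1.66 (95% interval 0.20 to 3.12), with sap3_HL at 4.05 and 2.59 and the other arrays at 1.70 to 3.13. It was 0.93 without sap3_HL_1 and 2.39 without sap3_HL_2.

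The gene lists gave the same picture for whole pathways. The 22 lists of named genes had 437 entries on the array, of which 0 passed the adjusted test and 14 (3.2%) had an unadjusted p under 0.05, against 4.2% of all probe sets. Of these, 5 responded more positively in sap3 and 9 less. The share of all probe sets with a difference above 0 was 49.2%, and the median over all of them was -0.005.

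Heat shock proteins and factors had the highest median response of the 23 lists in both genotypes. Of its 30 members, 23 were at least 1 higher in HL in WT and 22 in sap3, and the median response was 2.15 in WT and 2.44 in sap3. The difference was above 0 in 21 of 30 members, with a median of 0.14 that moved between -0.11 and 0.40 with single arrays left out and was -1.17 in the 12 arrays as labelled. HSFA3 was the only member with an unadjusted p under 0.05. It encodes a heat stress factor that lies downstream of DREB2A in drought and heat. Its signals were 3.74, 3.14 and 3.62 in WT_LL and 4.91 and 5.19 in WT_HL, against 3.92 and 4.01 in sap3_LL and 4.48 and 3.97 in sap3_HL. Both WT_HL arrays lay above all other kept arrays, and the sap3 groups overlapped between light levels. The response was 1.55 in WT and 0.26 in sap3, a difference of -1.29 (95% interval -2.01 to -0.57). DREB2A itself responded by 1.22 in WT and 1.39 in sap3. HSP17.6II, a class II small heat shock protein, had the most positive difference, at 1.00 (95% interval -0.18 to 2.18). HSP21, a chloroplast small heat shock protein, stayed at 1.61 to 2.12 in all 9 arrays.

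Among 22 regulators of reactive oxygen and stress responses, 9 differences were above 0 and 13 below, with a median of -0.09. ZAT10, a zinc finger repressor induced by strong light, had 5.62, 5.24 and 6.01 in WT_LL and 7.39 and 7.34 in WT_HL. In sap3 it had 7.12 and 7.02 in LL and 7.98 and 7.60 in HL. The sap3 arrays in LL lay near the WT arrays in HL, so the response was 1.74 in WT and 0.72 in sap3. The difference was -1.02 (95% interval -1.74 to -0.30). WRKY53, a factor of senescence and defence, had 4.64, 3.88 and 4.50 in WT_LL, 5.16 and 5.35 in WT_HL, 5.29 and 5.65 in sap3_LL and 5.38 and 5.36 in sap3_HL. Again the LL arrays of sap3 were as high as the HL arrays of either genotype, with a difference of -1.02 (95% interval -1.75 to -0.28). The NAC factors ANAC032 and ATAF1 responded by 3.31 and 2.66 in WT and by 3.69 and 2.48 in sap3.

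High LL signals in sap3 were also present in 2 touch-responsive calcium sensor genes. CML12 had 7.41, 6.68 and 7.70 in WT_LL, 8.50 and 8.50 in WT_HL, 8.21 and 9.36 in sap3_LL and 8.89 and 8.64 in sap3_HL. Only the WT_LL arrays were low. Its difference was -1.26 (95% interval -2.40 to -0.11), and was -1.83 without sap3_LL_1, -0.68 without sap3_LL_3 and -0.73 in the 12 arrays. CML24 had 4.58, 4.18 and 4.54 in WT_LL, 5.24 and 5.58 in WT_HL, 5.19 and 5.72 in sap3_LL and 5.51 and 5.84 in sap3_HL, with a difference of -0.76 (95% interval -1.46 to -0.06) that became -0.49 without sap3_LL_3 and -0.41 in the 12 arrays. In the list of 18 calmodulin-like and calcium-binding genes, 6 differences were above 0 and 12 below, with a median of -0.11. In sap3 minus WT at LL, CML12 stood at 1.52, ZAT10 at 1.45, WRKY53 at 1.13 and CML24 at 1.02. These genes were named for a small p of a negative difference, which favours high LL signals in sap3. The share of all probe sets at such a level was not counted.

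The 22 AP2/ERF factors had 8 differences above 0 and 14 below, with a median of -0.12 that ranged from -0.22 to 0.08 with single arrays left out. CBF2, which activates cold-regulated genes in Arabidopsis, had 3.22, 2.76 and 2.94 in WT_LL and 3.20 and 3.37 in WT_HL. In sap3 it had 3.48 and 4.42 in LL and 2.85 and 2.79 in HL. The sap3_LL arrays were the highest of the 9 and far apart from each other. The difference was -1.44 (95% interval -2.27 to -0.61), or -0.97 without sap3_LL_3 and -0.53 in the 12 arrays as labelled. The LL pools labelled WT and cml49 had 3.49 and 3.48, and the left-out sap3_HL_3 had 3.99. ERF5, an ethylene response factor, responded by 0.15 in WT and -0.40 in sap3, a difference of -0.55 (95% interval -0.99 to -0.11). ERF2 was lower in HL in both genotypes, with responses of -1.53 in WT and -1.81 in sap3.

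Genes of the photosynthetic apparatus had small differences that lay mostly below 0, and none had an unadjusted p under 0.05. In the Calvin-Benson cycle, which fixes carbon dioxide, 19 of 21 differences were below 0, with a median of -0.21 (-0.29 to -0.11 with single arrays left out). At least 1 higher in HL were 4 members in WT and 1 in sap3, beside 2.7% and 2.72% of all probe sets. FBA1, a plastid aldolase, had 7.91, 7.55 and 7.89 in WT_LL and 9.18 and 9.17 in WT_HL, against 7.82 and 8.36 in sap3_LL and 9.03 and 9.03 in sap3_HL. Its responses of 1.39 in WT and 0.94 in sap3 lay on either side of the threshold of 1. The HL arrays of sap3 were slightly below those of WT, and the difference of -0.45 (95% interval -1.07 to 0.17) included 0. The Rubisco small subunit genes RBCS1B and RBCS2B responded by 1.34 and 1.54 in WT and by 1.22 and 0.90 in sap3. WT_LL_2 had the lowest signal of both among the kept arrays, at 7.31 and 6.38.

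In tetrapyrrole synthesis, the route to chlorophyll and heme, 22 of 24 differences were below 0, with a median of -0.24 (-0.39 to -0.14 with single arrays left out, -0.04 in the 12 arrays). The median response was 0.04 in WT and -0.25 in sap3. PORB, the light-dependent protochlorophyllide reductase, responded by -1.10 in WT and -1.32 in sap3. CHLM, the magnesium protoporphyrin methyltransferase, responded by -0.62 and -1.05, a difference of -0.43 (95% interval -0.92 to 0.06). CAO, which makes chlorophyll b, had 8.51 to 8.74 in all WT arrays, 8.73 and 9.36 in sap3_LL and 8.34 and 8.47 in sap3_HL, so that 1 array in LL was high. Its difference was -0.56 (95% interval -1.18 to 0.06).

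Of 19 light-harvesting antenna genes, 16 had a difference below 0, with a median of -0.16 in the 9 arrays that became 0.11 in the 12. LHCB6 responded by -0.10 in WT and -0.49 in sap3, and LHCB7 by 1.50 and 1.43. Of 21 genes of photoprotection and photosystem repair, 17 differences were below 0, with a median of -0.16. BCH2, a beta-carotene hydroxylase of xanthophyll synthesis, had 3.13, 2.69 and 3.25 in WT_LL, 7.07 and 6.91 in WT_HL, 3.04 and 3.99 in sap3_LL and 7.21 and 6.73 in sap3_HL. The genotypes overlapped in HL and the difference was -0.51 (95% interval -1.44 to 0.42). Its relative BCH1 had a difference of 0.56 (95% interval -0.16 to 1.29), with lower LL signals in sap3, at 2.66 and 2.68, than in WT, at 3.28 to 3.61. The median of the 6 leaf markers, which are genes of Rubisco, Rubisco activase and the antenna, had a difference of -0.40, and WT_LL_2 had the lowest leaf marker median of the 9 arrays. Without WT_LL_2 the list medians were still below 0, at -0.11 for the Calvin-Benson cycle, -0.15 for tetrapyrrole synthesis, -0.09 for the antenna and -0.09 for photoprotection.

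Sugar starvation and dark-induced genes, which mark low carbohydrate supply, had a median response of -2.28 in WT and -2.56 in sap3. Of 18 members, 14 in WT and 15 in sap3 were at least 1 lower in HL. The difference was below 0 in 15 of 18, with a median of -0.16 that stayed below 0 with single arrays left out (-0.39 to -0.05) but was 0.47 in the 12 arrays. TPS9, a class II trehalose phosphate synthase, had 6.11, 6.28 and 5.94 in WT_LL, 3.95 and 4.13 in WT_HL, 6.24 and 6.87 in sap3_LL and 3.29 and 3.96 in sap3_HL. Its LL and HL arrays did not overlap in either genotype, with responses of -2.07 in WT and -2.93 in sap3. The difference was -0.86 (95% interval -1.65 to -0.07), and was -1.20 without sap3_HL_2, -0.53 without sap3_HL_1 and 0.06 in the 12 arrays. DRM2, a dormancy-associated gene, had the most positive difference, at 0.56 (95% interval -0.04 to 1.15).

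In the list of HY5, B-box and photoreceptor genes, 9 members in WT and 9 in sap3 were at least 1 higher in HL, and 19 of 21 differences had intervals within -1 and 1. Of the 21 differences, 15 were below 0, with a median of -0.08 (-0.18 to -0.01 with single arrays left out). HYH, a bZIP factor close to HY5, responded by 3.23 in WT and 2.84 in sap3, a difference of -0.40 (95% interval -0.87 to 0.07). BBX32 gave 3.67 and 3.69, and the blue light receptor gene CRY2 gave -1.28 and -1.30. Of 17 shade and low-light growth genes, 8 differences were above 0 and 9 below. PIF4, a phytochrome-interacting factor, responded by -1.80 and -1.62. Of 23 flavonoid and anthocyanin genes, 16 differences were below 0, with a median of -0.11. F3H, flavanone 3-hydroxylase, responded by 2.93 in WT and 2.47 in sap3, and CHS, chalcone synthase, by 1.76 and 1.42.

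The circadian clock list was divided, with 12 differences above 0 and 11 below, and a median of 0.11 that was -0.02 in the 12 arrays. At least 1 higher in HL were 6 members in each genotype, and at least 1 lower were 5 in WT and 0 in sap3. Of all probe sets, 1.81% in WT and 1.97% in sap3 were at least 1 lower. The members counted in WT only included ELF3, at -1.07 in WT and -0.85 in sap3, and BOA, at -1.08 and -0.26. No member of the list passed the adjusted test. CCA1, the morning MYB factor, had 4.44, 4.60 and 4.79 in WT_LL, 8.52 and 8.67 in WT_HL, 4.85 and 5.66 in sap3_LL and 8.53 and 8.55 in sap3_HL. Both sap3_LL arrays were above all WT_LL arrays while the HL arrays were alike, and the difference was -0.70 (95% interval -1.43 to 0.03). PRR9, a morning pseudo-response regulator, responded by 4.4 in WT and 3.64 in sap3, with sap3_LL at 5.26 and 6.52 against 4.80 to 5.37 in WT_LL. TOC1, an evening gene, responded by -1.18 and -0.69. In all 3 of these genes sap3_LL_3 stood apart from the other kept LL arrays. The LL pools labelled WT and cml49 had 5.73 and 5.38 for CCA1, 6.17 and 6.59 for PRR9, and 9.05 and 9.23 for TOC1. Those pools thus lay near sap3_LL_3 for CCA1 and PRR9, whichever label they carried. Without sap3_LL_3 the differences were -0.30 for CCA1, -0.14 for PRR9 and 0.08 for TOC1, against -0.70, -0.77 and 0.50 with it. BOA, an evening MYB-like factor, had a difference of 0.82 (95% interval 0.06 to 1.59), with low signals of 1.50 to 2.99, and was 0.54 without sap3_LL_3.

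Jasmonate synthesis and signalling genes had a median response of 0.47 in WT and 0.70 in sap3. The difference was above 0 in 21 of 25 members, with a median of 0.21 (0.09 to 0.36 with single arrays left out) that was -0.06 in the 12 arrays. TAT3, a jasmonate-responsive tyrosine aminotransferase, had 4.14, 3.28 and 4.35 in WT_LL, 4.30 and 4.17 in WT_HL, 4.38 and 3.46 in sap3_LL and 5.76 and 5.96 in sap3_HL. Only the sap3_HL arrays stood apart, above all others. The response was 0.31 in WT and 1.94 in sap3, a difference of 1.63 (95% interval 0.55 to 2.71). In the arrays left out TAT3 was 4.87 in WT_HL_2 and 3.33 in sap3_HL_3, and the 12 arrays gave 0.63. JAZ9, a repressor of jasmonate responses, responded by 1.64 in WT and 2.09 in sap3, and MYC2, the factor it represses, by 1.54 and 1.86. LOX4, a 13-lipoxygenase of jasmonate synthesis, went the other way, with a difference of -0.73 (95% interval -1.65 to 0.19) and 6.19 and 5.08 in sap3_LL against 4.42 to 4.63 in WT_LL.

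Of 26 abscisic acid, cold and drought genes, 20 had a difference above 0, with a median of 0.19 (0.01 to 0.32) that was -0.40 in the 12 arrays. GOLS1 and GOLS2, galactinol synthases that start raffinose synthesis, responded by 2.59 and 2.30 in WT and by 2.79 and 2.94 in sap3. GOLS3 had the opposite difference, at -0.69 (95% interval -1.47 to 0.10). RD26, a NAC factor of drought, had a difference of 0.64 (95% interval -0.11 to 1.38). Of 20 salicylate and defence genes, 11 differences were above 0 and 9 below. CYP71A13, which acts in camalexin synthesis, had 2.17, 2.87 and 2.57 in WT_LL, 4.25 and 3.78 in WT_HL, 3.33 and 2.66 in sap3_LL and 3.55 and 3.37 in sap3_HL. Both WT_HL arrays were the highest of the 9, and the difference was -1.01 (95% interval -1.86 to -0.17). FMO1, a monooxygenase of systemic resistance, had a difference of 0.90 (95% interval 0.01 to 1.78) at signals of 1.91 to 3.09, and was 0.54 without sap3_HL_1.

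**Figure D4:**
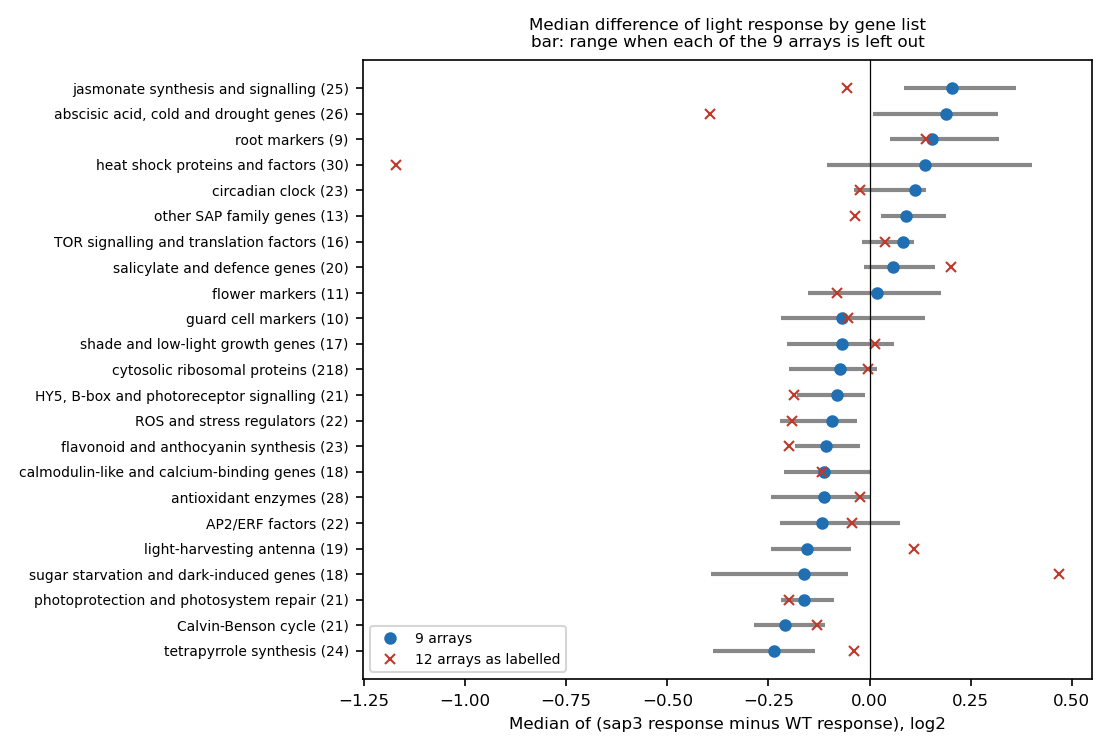
Median difference of light response (sap3 minus WT, log2, x axis) for 23 gene lists, with the number of members in brackets, the range with each of the 9 arrays left out as a bar and the median in the 12 arrays as labelled as a cross. All medians in the 9 arrays lie between -0.24 (tetrapyrrole synthesis) and 0.21 (jasmonate), and the cross for heat shock proteins lies at -1.17.

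The other SAP family genes differed little. Of 13 members, 11 had a difference above 0, with a median of 0.09 (-0.04 in the 12 arrays) and a range of -0.25 to 0.27, and 12 had intervals within -1 and 1. SAP6 responded by 1.20 in WT and 1.05 in sap3. SAP1 and SAP4 responded by -1.59 and -1.37 in WT and by -1.54 and -1.21 in sap3. SAP9, the member with the most positive difference, had 3.94 to 4.28 in WT_LL, 4.46 and 4.76 in WT_HL, 4.10 and 3.99 in sap3_LL and 4.50 and 5.14 in sap3_HL, and the genotypes overlapped in both light levels.

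The series title concerns cytosolic translation, and the genes for it were described as well. Of 16 genes of TOR signalling and translation factors, 10 differences were above 0, with a median of 0.08, and 14 had intervals within -1 and 1. S6K1, the kinase of ribosomal protein S6 that TOR activates, had 6.73, 7.13 and 6.67 in WT_LL, 8.61 and 8.48 in WT_HL, 6.73 and 6.76 in sap3_LL and 8.50 and 8.48 in sap3_HL. The genotypes overlapped in both light levels, with a difference of 0.04 (95% interval -0.50 to 0.59). S6K2, its close relative, responded by 0.92 in WT and 1.35 in sap3. Of 218 cytosolic ribosomal protein genes, chosen by annotation text, 77 differences were above 0 and 141 below, with a median of -0.07 that ranged from -0.20 to 0.02 with single arrays left out. Of these, 3 had an unadjusted p under 0.05 with a more positive and 8 with a less positive response in sap3, which is 5.05% of the list. The extremes were AT3G10950 at 1.46 and AT5G63070 at -1.37, both at signals of 1.92 to 3.52. Probe sets of near-identical ribosomal protein genes may share signal. The authors' annotation flags cross-hybridization for 6 of the 218, and these extremes are not among them.

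Antioxidant enzymes had a median difference of -0.11 over 28 members, 22 of which had intervals within -1 and 1. VTC2, the enzyme that commits carbon to ascorbate, had 8.46, 8.68 and 8.48 in WT_LL, 11.79 and 11.73 in WT_HL, 8.36 and 8.40 in sap3_LL and 11.76 and 11.67 in sap3_HL. Its response was 3.22 in WT and 3.34 in sap3. The difference was 0.12 (95% interval -0.34 to 0.57), which leaves out a 2-fold difference either way. GPX7, a plastid glutathione peroxidase, responded by 2.83 and 2.02, a difference of -0.82 (95% interval -1.84 to 0.20), with sap3_HL at 6.63 and 5.34. APX2, a cytosolic ascorbate peroxidase, stayed at 2.34 to 3.00 in all 9 arrays.

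Guard cell markers were divided, with 5 differences above 0 and 5 below. KAT1, a potassium channel of guard cells, responded by 1.91 in WT and 1.61 in sap3, a difference of -0.30 (95% interval -0.74 to 0.14). Among root markers PLT1 had a difference of 0.93 (95% interval 0.12 to 1.74), and among flower markers AMS had one of 0.56 (95% interval 0.03 to 1.09), at signals of 1.97 to 3.99 over both genes. PLT1 was at 0.52 without sap3_HL_1 and 1.34 without sap3_HL_2.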

How the data were processed

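The authors deposited log2 signals, made with RMA in Affymetrix Expression Console per the submitters' processing notes, and neither versions nor a build are stated there. Gene positions and descriptions, the other values used, came from the authors' deposited annotation columns, with names from RefSeq (TAIR10.1). Of 28501 probe sets, 28403 in the main category were tested, 27213 of them with 1 locus. A locus with several probe sets was represented by the one with the highest mean. limma 3.58.1 in R 4.3.3 (lmFit, eBayes, 4 group means, 9 arrays, two-sided) gave the difference of responses with 95% intervals, with Benjamini-Hochberg adjustment over all 28403 and a threshold of 0.05. HSP90.1 enters with its values only. The arrays, lists and comparison were chosen with earlier results of these data known.

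Genes were named by rule: SAP3 and HSP90.1, the 12 smallest p in each direction, the 10 largest mean light responses in each direction, and from each list the smallest p each way and up to 2 largest responses each way. Of the others named, WRKY53, ERF5 and CML24 were list members with an unadjusted p under 0.05. Alternatives were the 12 arrays as labelled, leaving out each array, a replicate block, other priors, array weights, 2 normalizations, a filter on dim probe sets, 1 probe set per locus and an adjusted p under 0.01. The procedure was tested on simulated data. Sequences were not used here.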

Additional observations from a re-analysis of the deposited data

Results flagged for a closer look

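In the group labelled sap3 in LL, HSP90.1 in replicate 2 stood at 11.09, against 3.86 and 3.19 in the replicates that were kept. It is marked because its level is that of the arrays labelled HL and lies far from the rest of its group. It is one of the 3 arrays left out by the rule, and SAP3 in the same array was 6.98, the highest of the 12 single-replicate arrays.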

How the results depend on the processing

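The count of 0 probe sets with an adjusted p under 0.05 was the same in every alternative run, with smallest adjusted p-values in limma of 0.1029 (without sap3_LL_3) to 0.9997 (without WT_HL_1). The 1192 probe sets at an unadjusted p under 0.05 became 744 in the 12 arrays as labelled and 598 of 15141 without dim probe sets, where fewer were tested, and ranged from 1035 (without WT_HL_1) to 1860 (without sap3_LL_1) with single arrays left out. The cause of the other shifts was not tested. The replicate number as a block gave 0 adjusted and 1441 unadjusted calls. Deviations of the 10 pairs with the same number correlated by only -0.04 to 0.08, and those of the 20 other pairs by -0.08 to 0.04. In groups of 2 arrays the deviations are mirror images, so these correlations do not settle whether the numbers mark a shared batch. In the 12 arrays 15 of the 23 list medians and 98 of the 166 named genes moved by more than the spread between replicates, and 9 list medians changed sign. With the block 11 list medians and 57 genes moved that far. List medians of 12 of the 23 lists kept their sign in all 9 leave-outs. With 2 or 3 arrays in a group, the median interval reached 0.60 to either side, and dim probe sets had wider ones.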
